A study of Mus musculus with 9 samples.

Results

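The subject is a set of 364 RNA sites found in both EZH2 libraries and in neither SUZ12 library, out of 44277 sites in all. They come from dCLIP, a crosslinking assay in which a biotin-tagged protein is captured with the RNA bound to it. Members were chosen by the presence of peaks: peaks of 4 dCLIP libraries that overlapped on the same strand by at least 1 bp were merged into sites, and a member had a peak in EZH2 replicates 1 and 2 and none in SUZ12 replicates 1 and 2. Presence in EZH2 and absence in SUZ12 is therefore the choice itself and not a finding. The cells were female mouse embryonic stem cells of the line EL 16.7 (CAST/Ei x 129/Sv/Jae) after 7 days of adherent differentiation. All 4 clones stably expressed the biotin ligase BirA. The EZH2 libraries came from clones 4A and 5A with Avi-GFP-mEzh2, and the SUZ12 libraries from clones 8E and 8H with Avi-GFP-mSuz12, so each replicate is a single clone. The 9 samples also include a mock dCLIP library and 4 PRO-seq libraries, not analysed here.

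EZH2 is the methyltransferase of Polycomb repressive complex 2 (PRC2), which places methyl groups on lysine 27 of histone H3 at silenced genes. SUZ12 is a core subunit that holds the complex together and that EZH2 needs for its activity. PRC2 binds RNA as well as chromatin, and in differentiating female cells it acts on the X chromosome that becomes inactive. As both proteins belong to the same complex, the question here is which of the EZH2 sites found in both clones have no listed SUZ12 peak, and what those sites are like.

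The lists held 10468 and 13267 peaks for EZH2 and 11580 and 13951 for SUZ12, called on each library and strand alone. Their coordinates are of the mouse build mm9, counted from 1, and no gene is named because no annotation of that build was used here. Nor is any sequence shown, since no genome of that build was used. A peak list gives no read depth, and RNA abundance was not measured, so a missing SUZ12 peak means that no peak was listed and not that SUZ12 was absent. The marker genes of the labelled cells could not be checked either, because peaks were not assigned to genes. Whether the clones or the libraries were prepared together is not given in the labels.

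The EZH2-only sites were the smallest of the 6 classes of sites found in exactly 2 libraries. They made up 0.822% of all sites, against 1.04% (461 sites) for both SUZ12 libraries. Pairs that mix the proteins gave 449 sites (1.01%) for both replicates 1, 513 (1.16%) for both replicates 2, 401 (0.906%) for EZH2 replicate 1 with SUZ12 replicate 2, and 449 (1.01%) for EZH2 replicate 2 with SUZ12 replicate 1. The members thus took up a smaller share of sites than any mixed pair did. Longer lists offer more peaks to pair, so the shares were also taken within a list, which leaves the partner list's length unadjusted. Of the peaks of EZH2 replicate 1, 3.48% lay in members, 4.30% in sites shared with SUZ12 replicate 1 alone and 3.84% in sites shared with SUZ12 replicate 2 alone. Of the peaks of EZH2 replicate 2, 2.75% lay in members, 3.39% in sites shared with SUZ12 replicate 1 alone and 3.87% in sites shared with SUZ12 replicate 2 alone. In each EZH2 clone, pairing with the other EZH2 clone gave the lowest of these 3 shares. For replicate 2 the order of the shares was also that of the partner lists' lengths (10468, 11580 and 13951 peaks). For replicate 1 it was not. These counts were not tested, as sites of 1 library are not replicates.

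**Figure D1:**
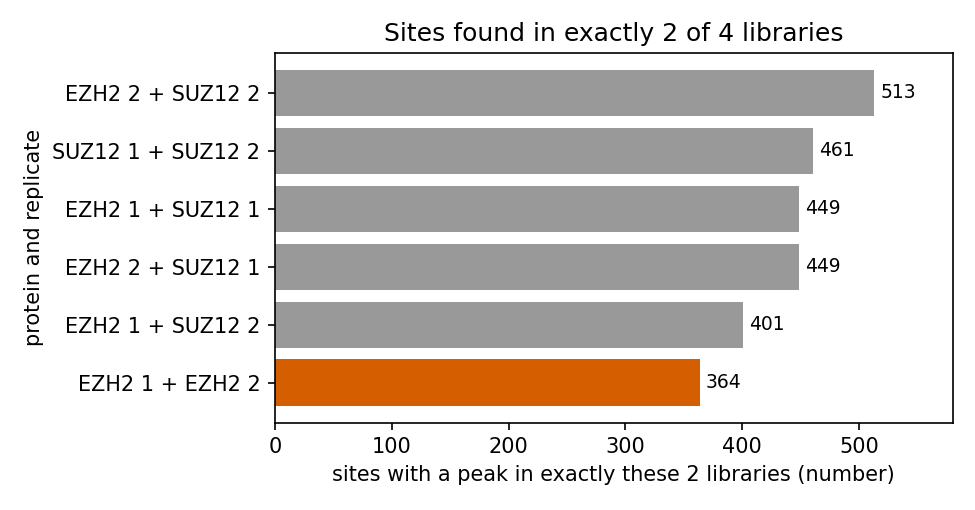
Number of sites (horizontal axis) with a peak in exactly the 2 named libraries, where each label gives protein and replicate number. The pair of EZH2 libraries has 364 sites, the fewest of the 6 pairs, and EZH2 replicate 2 with SUZ12 replicate 2 has 513, the most.

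Members were somewhat stronger than the typical EZH2 peak and much weaker than the sites of all 4 libraries. The FDR, the false discovery rate assigned to each peak by the authors' caller, had a median of 0.000719 in replicate 1, with a range from 7.58e-12 to 0.0105, and of 0.00107 in replicate 2, with a range from 2.12e-17 to 0.00926. At 1 member the replicate 1 peak carries the caller's mark for a failed FDR, at 0.0105. Ranked within their lists, the members had a median percentile of 33.1 in replicate 1 and 43.9 in replicate 2, where a low percentile is a strong peak. On the scale of −log2 of the caller's p-value, where 1 unit divides p by 2, the medians were 12 and 11, and the median over all peaks was 10 in both EZH2 lists. This scale is coarse and has many ties, as 97.5% and 97.9% of the p-values in these lists were whole powers of 1/2. Sites found in all 4 libraries had medians of 21 and 22 in these clones. EZH2 peaks in the mixed pairs had medians of 11 to 13. At sites of both EZH2 clones and 1 SUZ12 library, the medians were 14.1 and 16 with SUZ12 replicate 1 and 13 in each clone with SUZ12 replicate 2. The members thus lay close to the mixed pairs and below the sites of 3 and 4 libraries. An FDR below 0.001 in both clones was reached by 107 members (29.4%) and one below 0.0001 in both by 31 (8.52%). None of the 364 had an FDR below 1e-10 in both clones, and 5 had it in 1 clone.

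The clones ranked the members differently. Across the 364 members, −log2 p of replicate 1 and replicate 2 had a Spearman's rho of 0.234, against 0.624 across the 402 sites of all 4 libraries; the points share 2 libraries, and the members span a narrower range. Within their lists, 200 members stood at a better percentile in replicate 1 and 164 in replicate 2. In the best 10% of both lists were 15 members (4.12%), in the best 50% of both 152 (41.8%), and outside the best 50% of both 80 (22.0%). The corresponding share in the best 10% of both lists was 4.77% for the sites of both SUZ12 libraries and 2.24% to 6.01% for the mixed pairs.

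**Figure D2:**
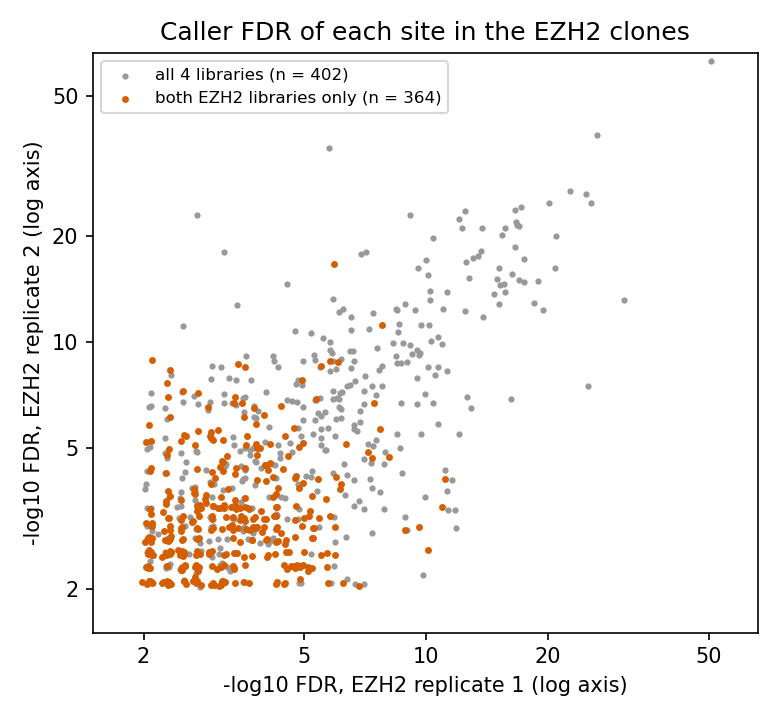
−log10 of the caller's FDR in EZH2 replicate 1 (horizontal) and replicate 2 (vertical), both on log axes, 1 point per site, for the 364 EZH2-only sites (orange) and the 402 sites of all 4 libraries (grey). The EZH2-only sites crowd towards the lower left corner, and none of them has an FDR below 1e-10 in both clones, whereas the grey points reach much further along the diagonal.

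The strongest member by its weaker clone lay at chr1:24621236-24621402 on the minus strand, with an FDR of 1.76e-08 in replicate 1 and 7.03e-12 in replicate 2. The fourth strongest lay nearby at chr1:24622632-24622861 on the same strand, with 1.18e-06 and 2.12e-17, the lowest FDR of any member in either clone. Between them stood a SUZ12 replicate 1 peak of 1.29e-15 at chr1:24621807-24622217, which contained a weaker SUZ12 replicate 2 peak. Further SUZ12 peaks lay on the low-coordinate side of both members, so strong peaks of either protein stood side by side in this stretch. The nearest SUZ12 peaks were 404 and 482 bp (replicates 1 and 2) from the first member and 414 and 614 bp from the second. The first was also overlapped by a SUZ12 peak on the opposite strand, the only member of the 364 for which that was so.

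The second strongest member was on the X chromosome, at chrX:100643235-100643655 on the plus strand, with an FDR of 3.56e-08 and 1.89e-07. It ranked 212 and 365 in the lists of the clones. SUZ12 peaks stood 1253 and 2211 bp away. The third, chr7:134622926-134623196 on the plus strand, had an FDR of 8.64e-07 and 1.62e-09, and its nearest SUZ12 peaks were 22724 and 2863 bp away. The fifth, chr16:96346288-96346487 on the minus strand, had 1.63e-06 and 1.49e-09, with SUZ12 peaks at 1624 and 43843 bp. In both of these, 1 SUZ12 library had a peak within a few kb and the other had none within 20 kb.

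Members stronger in replicate 1 were chr8:122475791-122475980 on the plus strand (2.07e-08 and 2.22e-06), chr6:148893777-148894131 on the minus strand (4.47e-07 and 7.04e-06), chr11:53113297-53113818 on the minus strand (6.71e-08 and 1.29e-05) and chr5:143665386-143665565 on the minus strand (7.71e-09 and 1.94e-05). The last of them ranked 177 in replicate 1 and 1301 in replicate 2. Members stronger in replicate 2 were chr13:44948193-44948429 on the plus strand (3.26e-06 and 2.69e-09), chr10:41239270-41239763 on the plus strand (4.63e-06 and 1.23e-07) and chr7:134702009-134702258 on the plus strand (1.14e-05 and 1.51e-08). Of these members, 3 differed least between the clones. They were chr6:89290896-89291120 on the minus strand (1.07e-05 and 6.62e-06), chr8:87213277-87213657 on the plus strand (1.41e-05 and 9.46e-06) and chr8:46129538-46129771 on the plus strand (1.96e-05 and 2.06e-06). Nearness to SUZ12 varied widely among these 10 members. A SUZ12 replicate 2 peak began 11 bp from the chromosome 8 member at 46129538, and the nearest SUZ12 peak of the chromosome 10 member was 9077 bp away.

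Other members were much stronger in 1 clone than in the other. Those with an FDR below 1e-10 in replicate 1 lay on the plus strand at chr8:73223104-73223387 (7.58e-12), chr6:29311227-29311713 (1.21e-11) and chr4:137066896-137067341 (8.21e-11). Their FDR in replicate 2 was 7.99e-05, 0.000397 and 0.00269, and the last of these was rank 8028 of 13267. SUZ12 peaks stood 176, 3277 and 128 bp away, so 2 of the 3 had a SUZ12 peak within 200 bp.

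SUZ12 peaks were missing more often at weak than at strong EZH2 sites. Both EZH2 clones had a peak at 1038 sites, of which the 364 members were 35.1% (95% Wilson interval 32.2 to 38.0%). When these sites were ordered by the percentile of the weaker clone and divided into 5 equal parts, members made up 12 of the 208 strongest (5.77%, 3.33 to 9.81%) and 53 of the next 208 (25.5%, 20.04 to 31.8%). In the other parts they made up 45.9%, 50.0% and 48.3%. The mirror set had a like order. Of the 1130 sites of both SUZ12 clones, 461 (40.8%) had no EZH2 peak, with 11.1% in the strongest part and 61.5% in the weakest. For EZH2 the share was thus higher in each of the first 3 parts than in the one before and changed little after that. These shares use the values that chose the members and are a description.

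**Figure D3:**
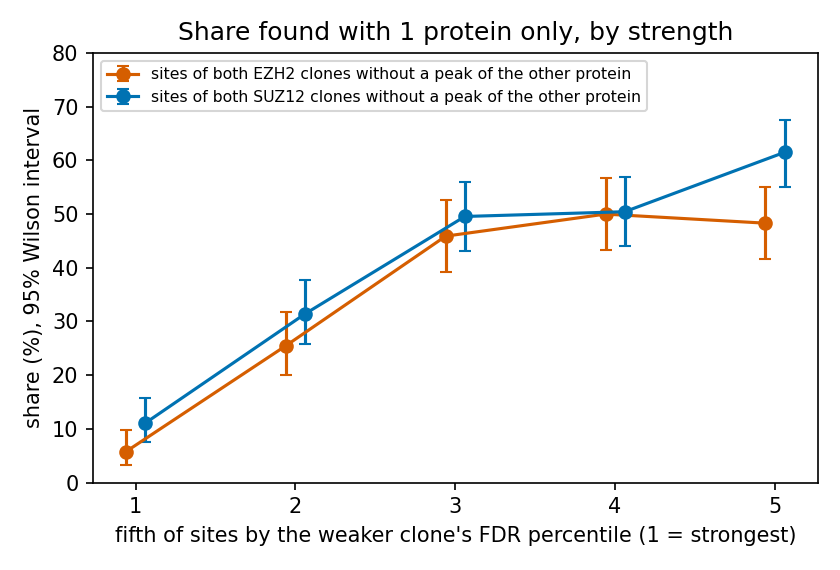
Share of sites of both EZH2 clones without a SUZ12 peak (orange) and of both SUZ12 clones without an EZH2 peak (blue), in 5 equal parts ordered by the weaker clone's percentile, with 95% Wilson intervals as bars. The EZH2 share goes from 5.77% in the strongest part to 48.3% in the weakest, and the intervals of the proteins overlap in every part, barely so in the weakest.

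Members had the usual width of EZH2 peaks. Their median width was 183 bp in replicate 1 and 188 bp in replicate 2, where all peaks of these lists had medians of 177 and 188 bp. EZH2 peaks in sites of all 4 libraries were wider, with 226 and 232 bp. The merged members had a median length of 224 bp and ran from 57 to 7495 bp. The narrowest were chr14:55516012-55516068 on the plus strand (57 bp) and, at 99 bp each, chr6:125120956-125121054 on the minus and chr6:113339479-113339577 on the plus strand. The widest were chr14:52852506-52860000 and chr7:108026185-108030000, both on the minus strand, at 7495 and 3816 bp, followed by chr1:58476433-58477128 on the minus strand at 696 bp. The first 2 of these end on a multiple of 10 kb, and in each the wide peak belonged to 1 clone (7421 bp in replicate 2 and 3816 bp in replicate 1) while the other clone had a peak of 191 or 164 bp.

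Within a member, the rule requires peaks of both clones that merge, so their positions are close largely by construction. They were rarely identical. The summits, the highest points of the peaks, were a median of 59.5 bp apart, with 161 of 364 pairs (44.2%) within 50 bp and 355 (97.5%) within 300 bp. The median distance was 41 bp for sites of both SUZ12 libraries, which have narrower peaks, and 41 to 59 bp for the mixed pairs. The overlap of the clones' peaks had a median of 113 bp and was not set beside that of other pairs. In 226 members (62.1%) it covered at least 50% of both peaks, and in 23 (6.32%) it was shorter than 25 bp. Members were split evenly between strands, with 183 on the plus and 181 on the minus strand.

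SUZ12 peaks were often near the members, where the rule excludes only overlap on the same strand. On the same strand, the nearest SUZ12 peak was a median of 3748 bp away. It was within 100 bp for 18 members (4.95%, Wilson interval 3.15 to 7.68%), within 1 kb for 93 (25.5%, 21.3 to 30.3%), within 10 kb for 259 (71.2%, 66.3 to 75.6%) and within 50 kb for 322 (88.5%, 84.8 to 91.3%). On the opposite strand a SUZ12 peak was within 1 kb of 6 members (1.65%). SUZ12 replicate 1 had a peak within 1 kb of 47 members and replicate 2 of 69, and both did at 23. The mirror distance, from the 461 SUZ12-only sites to the nearest EZH2 peak, had a median of 3671 bp, with 117 sites (25.4%, 21.6 to 29.5%) within 1 kb. For the mixed pairs, the nearest peak of the libraries missing there was within 1 kb of 19.3 to 29.6% of sites, so the members fell inside the range of the mixed pairs. Sites of a single EZH2 clone without SUZ12, merged with the other EZH2 list left out, had lower shares. A SUZ12 peak was within 1 kb of 16.1% of 8822 such sites for replicate 1 and 14.1% of 11491 for replicate 2. These sites include the members, and the difference was not tested. With SUZ12 replicate 2 left out, 495 sites met the rule, and 14.1% of them had a peak of SUZ12 replicate 1 within 1 kb.

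**Figure D4:**
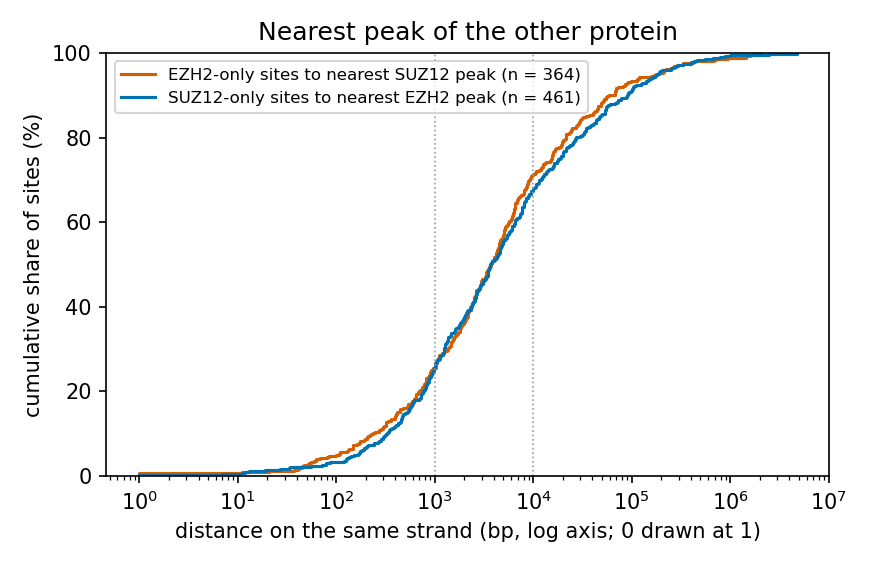
Cumulative share of sites (vertical) with a same-strand peak of the other protein within a given distance (horizontal, log axis, dotted lines at 1 and 10 kb), for the 364 EZH2-only sites and the 461 SUZ12-only sites. The curves run close together, at 25.5% and 25.4% within 1 kb and 71.2% and 67.9% within 10 kb.

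A minority of members stood away from any SUZ12 peak. No SUZ12 peak lay within 50 kb on the same strand of 42 members (11.5%, Wilson interval 8.65 to 15.2%), and 29 of these 42 also had no further EZH2 peak between 1 and 25 kb. No further EZH2 peak lay in that range for 17 of the 93 members with a SUZ12 peak within 1 kb. Among the 271 without one, this held for 68, and these groups include the 42 and their 29. The medians of −log2 p of the 42, 11.5 and 10, were below those of the 93 members with a SUZ12 peak within 1 kb, 14 and 11.2. The strongest of the 42 was chr9:107592105-107592317 on the minus strand, with an FDR of 6.63e-05 and 7.27e-05 and its nearest SUZ12 peak 54555 bp away. It was the 1 member of the 42 with an FDR below 0.0001 in both clones, against 13 of the 93 near ones.

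The surroundings of the members were compared between the libraries, since the rule used peaks in the sites and not those further away. The separation is not complete, as the lists are the same. The flanks of neighbouring members can also hold each other's EZH2 peaks. Between 1 and 25 kb on either side and on the same strand, the 364 members had 435 peaks of EZH2 replicate 1, 483 of EZH2 replicate 2, 519 of SUZ12 replicate 1 and 542 of SUZ12 replicate 2. At least 1 such peak was found at 58.8%, 63.2%, 62.6% and 67.3% of members. Divided by list length, this came to 1.14 and 1.00 peaks per member and 10000 listed peaks for EZH2 and 1.23 and 1.07 for SUZ12. The libraries of the proteins interleave. The mean was 1.07 ± 0.10 (SD, n = 2) for EZH2 and 1.15 ± 0.116 (SD, n = 2) for SUZ12, a difference of -0.0784. This was less than the SD of either protein (exact permutation test over libraries, two-sided p = 0.667, where 0.333 is the smallest p possible). Its sign turned to 0.00358 when SUZ12 replicate 1 was left out. Around the SUZ12-only sites the means were 1.11 ± 0.104 for EZH2 and 1.14 ± 0.134 for SUZ12 (SD, n = 2 each; difference -0.0308, exact permutation test, two-sided p = 0.667).

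Peaks of every library were found in the flanks of 124 members (34.1%), EZH2 peaks without SUZ12 peaks in those of 28 (7.69%), SUZ12 peaks without EZH2 peaks in those of 37 (10.2%), and none in those of 48 (13.2%). In all, 251 members (69.0%) had peaks of both proteins in their flanks.

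Members were scattered. Of 347 windows of 50 kb, counted per strand, that held a member, 333 held 1, 11 held 2 and 3 held 3. Of these windows, 170 had a peak of every library and 70 had none of SUZ12. The counts include the members' own peaks, so EZH2 peaks in these windows follow from the rule. A peak of every library thus only means that both SUZ12 libraries had one. The plus-strand window chr8:122450001-122500000 held 3 members, with 4 and 6 EZH2 peaks and 4 and 2 SUZ12 peaks. Besides the leading member at 122475791, they were chr8:122465915-122466215 (0.000151 and 8.89e-05) and chr8:122481146-122481353 (0.000155 and 1.62e-05). The SUZ12 peaks of the window lay between these members, the strongest at chr8:122477634-122477786 with an FDR of 6.28e-05 in SUZ12 replicate 1, and it overlapped a SUZ12 replicate 2 peak.

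In the plus-strand window chr7:134700001-134750000, with 5 and 5 EZH2 peaks and 3 and 6 SUZ12 peaks, the 3 members were 52, 322 and 3035 bp from SUZ12. The minus-strand window chr6:134400001-134450000 had 6 and 4 EZH2 peaks and 1 SUZ12 peak in each library. Its members, at chr6:134409246-134409495, chr6:134430373-134430537 and chr6:134436481-134436607, were stronger in replicate 1 (0.000287, 5.78e-06 and 3.08e-05) than in replicate 2 (0.00815, 0.00109 and 0.00291). Of these 3 windows it was the one in which EZH2 peaks outnumbered SUZ12 peaks most. The EZH2 counts include the members' own peaks, while the rule allows no SUZ12 peak in a member. An excess of EZH2 peaks in such windows is therefore partly fixed by the choice. The next windows, each with 2 members, were chr1:24600001-24650000 on the minus strand, with 6 peaks in each EZH2 and 3 in each SUZ12 library, and chr6:89250001-89300000 on the minus strand, with 3 and 4 EZH2 and 2 and 4 SUZ12 peaks.

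By chromosome, the members followed the EZH2 lists with a few departures. Chromosomes 8 and 11 held 38 members each (10.4%, Wilson interval 7.70 to 14.0%). All EZH2 peaks had 6.70% on chromosome 8 and 8.21% on chromosome 11, as means of the lists, and the interval for chromosome 8 lay above the shares of both lists while that for chromosome 11 included them. Chromosome 3 held 6 members (1.65%, 0.758 to 3.55%), under the 3.83% of all EZH2 peaks. Sites of both SUZ12 libraries had 8.68% on chromosome 8 and 4.56% on chromosome 3. Of the 20 chromosomes with members, 8 and 3 had the highest and the lowest ratio of the member share to the EZH2 peak share. They were picked after these values were seen and were not tested.

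The X chromosome held 18 members (4.95%, Wilson interval 3.15 to 7.68%), while it held 3.35% and 3.84% of all peaks in the EZH2 lists. The interval includes both shares, but it covers counting error only and treats the sites as independent. The members are also among the listed peaks. A difference was not tested, as sites are not replicates of a clone. The SUZ12-only sites had 16 on the X chromosome (3.47%, 2.15 to 5.56%) and the sites of all 4 libraries 22 (5.47%, 3.64 to 8.15%), and the 3 intervals overlap. No member was on chromosome Y.

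**Figure D5:**
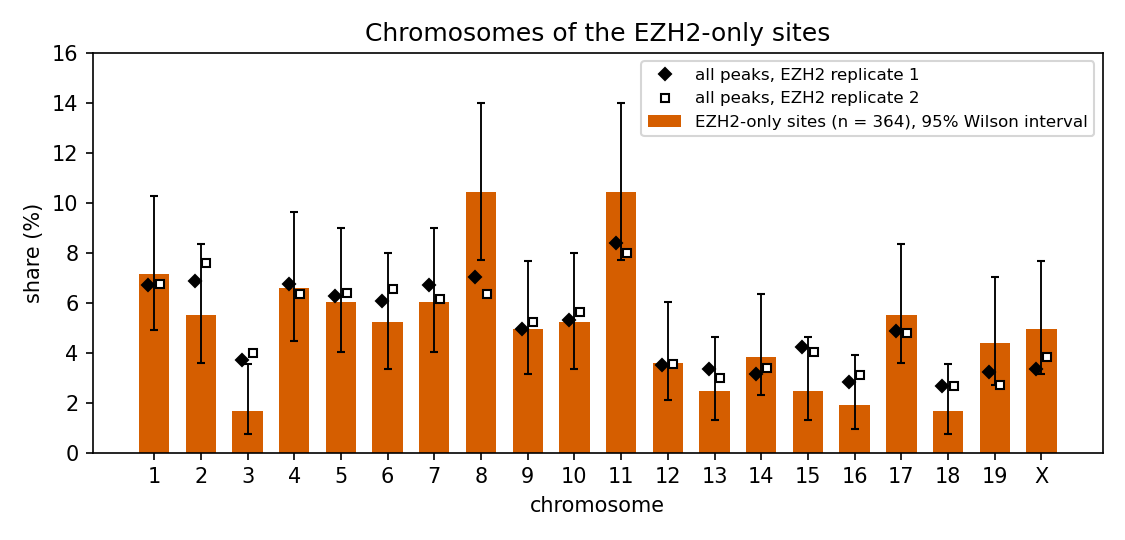
Share of the 364 EZH2-only sites on each chromosome (bars, with 95% Wilson intervals) and share of all peaks of EZH2 replicates 1 and 2 (diamonds and squares). Chromosome 8 stands above and chromosome 3 below both EZH2 lists, while the interval of the X chromosome, 3.15 to 7.68%, includes the shares of both lists.

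At the edges of the rule, the member with the least agreement between clones, chr6:83070095-83070402 on the minus strand, rested on an overlap of 1 bp. The member nearest to SUZ12, chr19:9077486-9077680 on the plus strand, touched a SUZ12 replicate 2 peak with 0 bp between them. Just outside, chr2:84456571-84456900 on the minus strand was lost from the set through an overlap of 7 bp with a SUZ12 replicate 1 peak. The EZH2 replicate 1 site at chr11:77420682-77420867 on the minus strand missed the nearest EZH2 replicate 2 peak by 2 bp, and 4 sites of that library alone were within 10 bp of one.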

How the data were processed

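Per the submitters' processing notes, reads were handled with Trim Galore 0.3.3, TopHat2 2.0.8, SAMtools 0.1.18 and bedtools 2.17.0 against mm9. The deposited lists give each peak's interval, strand and summit and, as FDR and p-value, the values of the authors' caller, whose name PeakRanger is taken from the peak names in the deposited files; its version, settings and control are not given in the sources used here. Peaks were called per library and strand.

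Peaks were merged by strand in Python 3.11.15 (NumPy 2.4.6, pandas 2.3.3, SciPy 1.17.1); merging joins peaks in chains. The peak with the lowest FDR stood for a clone at a site. FDR and p served only to describe and rank peaks. On simulated data with well separated sites, merging recovered the planted classes. Crowded stretches, like those around many members, were not simulated. Named regions are the 15 members with the lowest weaker FDR, the 5 windows of 50 kb with the most members (ties by FDR, settled after the data were seen), the 3 widest and narrowest members, those at the edges of the rule and the strongest on the X chromosome. Members with an FDR below 1e-10 in 1 clone, the strongest isolated member, chromosomes 3, 8 and 11 and further sites in the named windows were chosen after their values were seen. Members and lists were chosen with earlier results of these data known. The lists held 10468 to 13951 peaks. The number of sites in each class or part set the width of the Wilson intervals, which cover counting error only. Alternatives varied overlap, gap, width, list length, strand and libraries. The planned gene and sequence results were not analysed here.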

Additional observations from a re-analysis of the deposited data

How the results depend on the processing

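The number of EZH2-only sites moved by more than 1.5 times in 5 of 14 alternatives: it was 651 when peaks within 1000 bp were joined, 189 in the best 50% of each list and 152 when only the EZH2 lists were cut to the best 50%. With 1 library left out it was 495 to 11491, where the high values count every site of the remaining EZH2 clone without SUZ12. The SUZ12-only sites numbered 797 when peaks within 1000 bp were joined, 213 in the best 50% of each list and 582 to 12234 with 1 library left out. EZH2-only sites were fewer than SUZ12-only sites in each alternative that kept every library and treated the proteins alike, with 320 against 356 at equal list lengths; the cut of the EZH2 lists alone favours this by construction. The share with a SUZ12 peak within 1 kb was 35.3% with a 50% reciprocal overlap and 32.2% with only the EZH2 lists cut. It was 0% when peaks within 1000 bp were joined, by construction. Without SUZ12 replicate 1 it was 20.9% and without SUZ12 replicate 2 14.1%, measured to the remaining SUZ12 library. Without EZH2 replicate 1 it was 14.1% and without EZH2 replicate 2 16.1%, over sites of the remaining EZH2 clone. The median summit distance was 38.5 to 73 bp, apart from 370 bp when peaks within 1000 bp were joined. The X chromosome share was 4.45 to 6.16% where both EZH2 clones were kept. For sites of 1 EZH2 clone it was 3.05% (replicate 1) and 3.67% (replicate 2). The flank difference, EZH2 minus SUZ12, was 0.0105 for flanks of 1 to 100 kb and -0.0879 for 1 to 10 kb, and -0.160 to 0.00358 with 1 library left out; these settings were chosen after seeing the data. With the replicate number as a block it was -0.0784 (exact sign-flip permutation, two-sided p = 0.5, the smallest possible). Same-numbered libraries share only a number in the labels. Without the 2 members longer than 3000 bp it was -0.0762. Peak lists show no read depth, which limits every absence of a SUZ12 peak.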
